A study of Mus musculus with 6 samples.

Results

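The bone morphogenetic protein (BMP) genes described here were 5 ligand genes (Bmp2, Bmp4, Bmp5, Bmp6 and Bmp7), the secreted antagonist gene Grem1, the extracellular modulator gene Bmper, and the receptor genes Bmpr1a, Bmpr1b and Bmpr2. They were taken by gene name from a table of 22394 genes, and all 10 were found and tested. The samples were RNA of whole kidneys, taken from E13.5 mouse embryos and sequenced as mRNA libraries. There were 3 libraries from embryos with Foxd1Cre and the genotype Ptch1 (flox/-), called mutants here, and 3 from Ptch1 (flox/+) littermates, whose label lists no Cre, called controls. Foxd1 drives the Cre in the progenitors of the renal stroma, and Ptch1 encodes the receptor that holds the Hedgehog pathway off, so the comparison asks what changes when that brake is lost from the stromal lineage. Both groups carried a floxed allele. Foxd1Cre and the null allele, which is present throughout the embryo, occur only in the mutants, so their own effects cannot be told apart from loss of Ptch1 in the stroma.

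BMP ligands are secreted dimers of the TGF-beta superfamily. A dimer binds a complex of type I receptors (such as the products of Bmpr1a and Bmpr1b) and type II receptors (such as that of Bmpr2), and the activated type I receptor phosphorylates Smad1, Smad5 and Smad9, which enter the nucleus with Smad4. Secreted antagonists such as gremlin bind the ligands and keep them from the receptors. In the developing mouse kidney Bmp7 is needed to maintain nephron progenitors, Bmp4 from the mesenchyme around the ureteric bud limits where buds form and promotes ureteric smooth muscle, and gremlin lowers BMP signalling so that the bud can grow out and branch.

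Library depth, counted as reads recovered from the table, was 13261588 to 47847925 in the mutants and 21644399 to 25416896 in the controls. The targeted gene Ptch1 was at 23.5 to 35.8 FPKM (a level scaled to gene length and library depth) in mutants and 7.60 to 8.26 FPKM in controls. Ptch1 is itself induced by Hedgehog signalling and the value covers the whole gene, so this does not check the deletion. Markers of nephron progenitors summed to 362 to 414 FPKM in mutants and 360 to 476 FPKM in controls. Of these 8 markers, 7 had negative log2 fold changes and 1 a positive one, against 8625 and 8308 of all 16933 genes tested. Wt1 and Eya1 were lower at an unadjusted limma p under 0.05, as were 740 of all 16933 genes tested. Wt1 was at 42.5 to 43.9 FPKM in mutants and 58.9 to 68.3 FPKM in controls. Markers of the ureteric epithelium summed to 135 to 233 FPKM in mutants and 102 to 195 FPKM in controls. Mutant 1 and control 2 stood apart from the other libraries of their groups, with the highest scores for ureteric and early nephron markers. The Y-linked gene Ddx3y was at 13.9 to 17.8 FPKM in the 3 mutants and control 2 and at 0.0177 and 0.0598 FPKM in controls 3 and 1. Xist, the X-inactivation RNA of females, was at 0.103, 0.206 and 6.19 FPKM in mutants 1 to 3, against 72.9, 0.0471 and 53.3 FPKM in controls 1 to 3, so mutant 3 had Ddx3y together with more Xist than the other libraries with Ddx3y. Sex was not balanced between the genotypes and its part cannot be told apart from theirs.

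Of the 10 BMP genes, Bmp4 had the largest difference between the genotypes and the only 95% interval that did not span 0. No member passed an adjusted p of 0.05 in limma over all genes, where 0.307% of the genes tested passed. At an unadjusted limma p under 0.05 there was 1 of 10 members (Bmp4), against 9.63% of all genes tested. The mutant and control libraries did not overlap for 2 of the 10 (Bmp4, higher in mutants, and Bmp2, lower in mutants), against 16.7% of all genes tested. The authors' deposited table gave 1 of the 10 members an adjusted p under 0.05, again Bmp4, against 4.61% of the genes with an adjusted p there. The median log2 fold change was 0.12 over the members and -0.01 over all genes tested. With whole kidneys, more cells of a type and more RNA per cell cannot be told apart.

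Bmp4 (ENSMUSG00000021835.15, chromosome 14, 46383520 to 46390669, GRCm38, minus strand) encodes the ligand of the mesenchyme around the ureter and bud. It was at 37.3, 28.5 and 31.5 FPKM in mutants 1 to 3, against 23.3, 13.9 and 19.2 FPKM in controls 1 to 3. Every mutant lay above every control, although the gap between mutant 2 and control 1 was smaller than the distance from the lowest to the highest library within either group. The means were 32.4 ± 4.45 FPKM in mutants and 18.8 ± 4.72 FPKM in controls (SD, n = 3 each), a ratio of 1.73. On the log2(normalized count + 1) scale the fold change was 0.81 (SE 0.20, 95% interval 0.36 to 1.26), with an unadjusted limma p of 0.00315 and a limma adjusted p of 0.22. The difference had an unadjusted p under 0.05 in each of 17 alternative fits, but an adjusted p under 0.05 in 1 of them, in which limma weighted the libraries (limma adjusted p = 0.0299, range over the alternatives 0.0299 to 0.574).

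**Figure D1:**
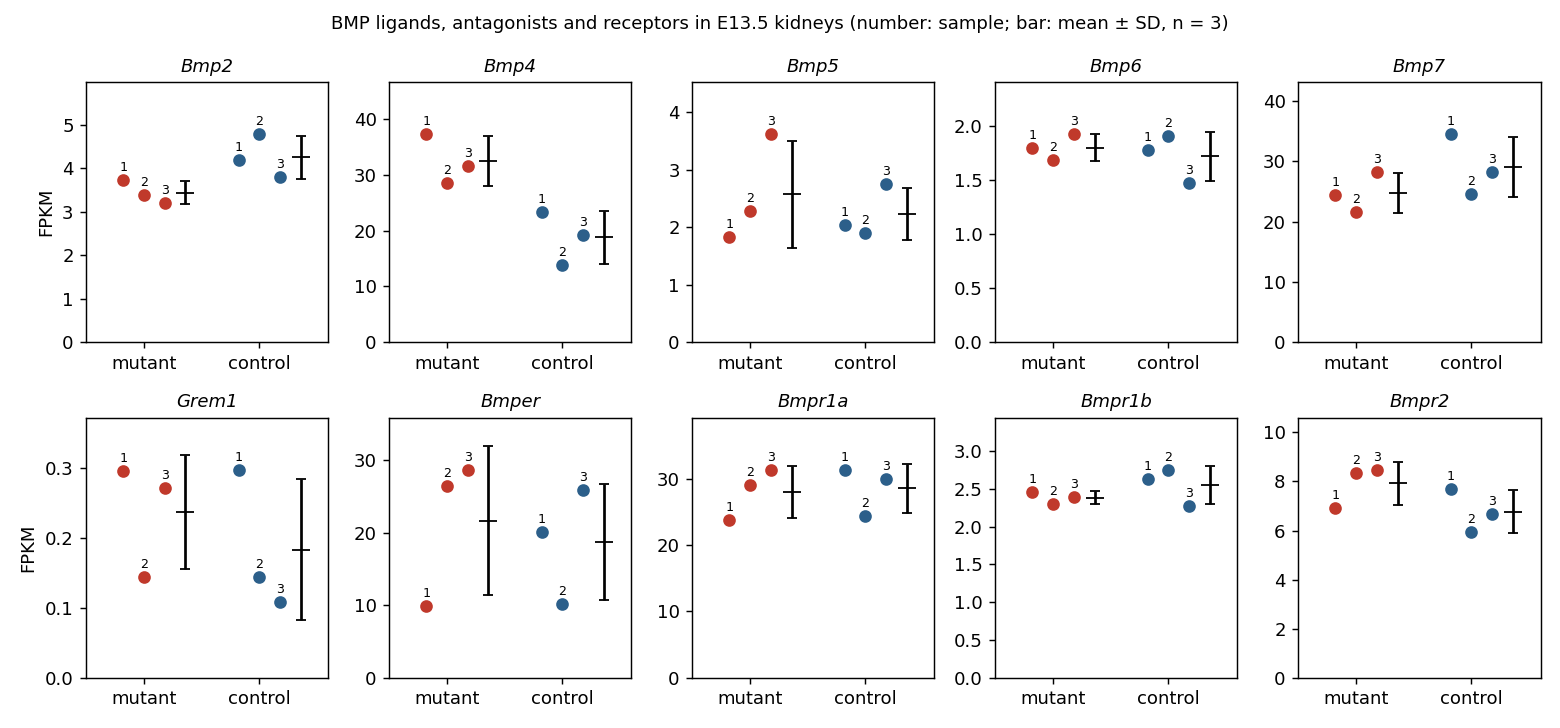
FPKM of the 10 BMP genes in each library, with the 3 mutants left and the 3 controls right in each panel; points are libraries, numbered by sample, and bars are the mean ± SD of a group. Bmp4 is the gene with the clearest gap, with mutants at 28.5 to 37.3 FPKM and controls at 13.9 to 23.3 FPKM, and Bmper falls to about 10 FPKM in mutant 1 and control 2.

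Part of the Bmp4 locus is shared with Gm15217 and the antisense transcript Gm15222, both annotated on the plus strand. Gm15222 was at 2.67, 2.12 and 2.19 FPKM in mutants 1 to 3, against 1.67, 0.832 and 1.06 FPKM in controls 1 to 3, with every mutant above every control. Its limma adjusted p was 0.369, for a log2 fold change of 1.01 (SE 0.31). The sources used here do not say whether counting used strand, and reads of these genes cannot be told apart without it. Gm15222 had 475 reads over the 6 libraries, against 8331 for Bmp4. Of 5 smooth muscle markers tested, none was called in limma over all genes. At an unadjusted limma p under 0.05, 4 of the 5 were higher, against 890 of all 16933 genes tested. The smooth muscle markers summed to 126 to 188 FPKM in mutants and 58.3 to 106 FPKM in controls, and none was at 0. In mutants 1 to 3 the sums were 188, 126 and 165 FPKM, in the same order as Bmp4. In controls 1 to 3 they were 58.3, 106 and 80.9 FPKM, in the reverse order of Bmp4. Stromal markers summed to 788 to 1644 FPKM in mutants and 261 to 893 FPKM in controls, and none was at 0. The highest mean level of that list was that of Col1a1, at 319 to 856 FPKM in mutants and 63.0 to 365 FPKM in controls. Of the 9, 5 were higher at an unadjusted limma p under 0.05. The log2 fold change was positive for 7 and negative for 2, Foxd1 (-0.27) and Meis1 (-0.18). Over all 16933 genes tested it was positive for 8308 and negative for 8625. Foxd1 was at 34.7 to 58.6 FPKM in mutants and 31.5 to 82.4 FPKM in controls. The part of smooth muscle and stromal cells in the Bmp4 difference was not tested.

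The promoter of Bmp4 is shown because it is the member that differed most by genotype, and that of Bmpr1a because it was the most abundant member. Windows run from 250 bases before to 50 after a RefSeq start (GRCm38.p6) on the strand of the gene, chr14:46390620-46390919 (minus) for Bmp4 and chr14:34502497-34502796 (minus) for Bmpr1a. Capitals mark a match to GGCGCC, a GC-rich motif of BMP-activated Smads.
Bmp4: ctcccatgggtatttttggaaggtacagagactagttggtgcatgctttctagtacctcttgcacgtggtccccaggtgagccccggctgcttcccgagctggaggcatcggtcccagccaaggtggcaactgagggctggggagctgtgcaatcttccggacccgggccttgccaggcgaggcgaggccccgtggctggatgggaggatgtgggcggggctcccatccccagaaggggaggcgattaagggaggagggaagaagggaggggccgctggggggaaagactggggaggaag
Bmpr1a: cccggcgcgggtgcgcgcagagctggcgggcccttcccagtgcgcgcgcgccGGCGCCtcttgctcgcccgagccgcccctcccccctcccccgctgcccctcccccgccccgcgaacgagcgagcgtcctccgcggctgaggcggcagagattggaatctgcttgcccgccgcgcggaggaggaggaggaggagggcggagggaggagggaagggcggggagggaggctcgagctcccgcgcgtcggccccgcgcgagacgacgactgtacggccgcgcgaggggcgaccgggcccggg
Windows were found for 8 of the 10 members (not Bmp2 and Bmp7), 10 windows in all. GGCGCC, which reads the same on both strands, was in a window of Grem1, of Bmpr1a and of Bmpr2 and in 11.9% of all 32851 windows. The Gli motif GACCACCCA (either strand) and the Smad palindrome GTCTAGAC were in no member's window and in 0.253% and 0.213% of all windows. The Bmp4 window was 64% G and C with 12 CpG dinucleotides, against 79.3% and 48 in that of Bmpr1a and a median of 52.7% and 7 over all windows. A match is a match of letters only.

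Bmp7 (ENSMUSG00000008999.7, chromosome 2, 172868012 to 172940321, GRCm38, minus strand), the ligand of nephron progenitors and the ureteric epithelium, was at 24.3, 21.6 and 28.2 FPKM in mutants 1 to 3, against 34.5, 24.5 and 28.2 FPKM in controls 1 to 3. The groups overlapped, with control 1 the highest and mutant 2 the lowest library. The log2 fold change was -0.23 (95% interval -0.59 to 0.14, limma adjusted p = 0.628).

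The shares of Bmp4 and Bmp7 among the ligand transcripts did not overlap between the genotypes. Bmp4 gave 54.1%, 49.6% and 46.0% of the summed FPKM of the 5 ligand genes in mutants 1 to 3, against 35.4%, 29.6% and 34.7% in controls 1 to 3. Bmp7 gave 35.3%, 37.6% and 41.2% in mutants and 52.4%, 52.2% and 50.8% in controls. Bmp4 was thus the most abundant ligand transcript in each mutant and Bmp7 in each control. The ratio of Bmp4 to Bmp7 within a library, which does not depend on scaling between libraries, was 1.53, 1.32 and 1.12 in mutants, against 0.676, 0.567 and 0.682 in controls. The summed ligand level itself overlapped, at 57.5 to 68.9 FPKM in mutants and 47.0 to 65.8 FPKM in controls. These sums were taken over the members and are given with no test. The shares and the ratio contain the Bmp4 values given above, so they are not a separate result. They were also seen among several quantities formed from the members, and single genes did not overlap in 16.7% of those tested.

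**Figure D2:**
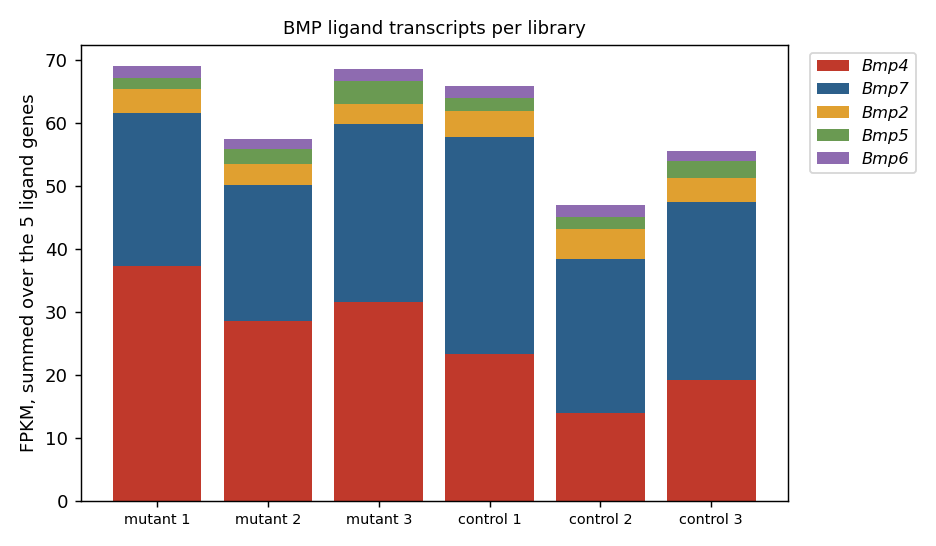
Summed FPKM of the 5 BMP ligand genes in each library (bars start at 0; colours are genes; mutants left, controls right). The Bmp4 part is 46.0% to 54.1% of each mutant bar and 29.6% to 35.4% of each control bar, while the bar heights of the groups overlap.

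The remaining ligand genes were low and together gave 10.7% to 12.8% of the ligand sum in mutants and 12.2% to 18.3% in controls. Bmp2 (ENSMUSG00000027358.6, chromosome 2, 133552159 to 133562885, GRCm38, plus strand), a close relative of Bmp4, was at 3.73, 3.39 and 3.20 FPKM in mutants 1 to 3, against 4.19, 4.78 and 3.80 FPKM in controls 1 to 3. All 3 mutants lay below all 3 controls, but mutant 1 and control 3 were 3.73 and 3.80 FPKM, and with upper quartile scaling the groups overlapped. Its log2 fold change was -0.30 (95% interval -0.67 to 0.06, limma adjusted p = 0.563). Bmp5 (ENSMUSG00000032179.7, chromosome 9, 75775364 to 75900310, GRCm38, plus strand), a ligand of the Bmp7 subgroup, was at 1.82, 2.29 and 3.62 FPKM in mutants and 2.04, 1.90 and 2.75 FPKM in controls. Mutant 3 and control 3 were its highest libraries, and without mutant 3 the sign of the fold change turned from 0.17 to -0.11. Bmp6 (ENSMUSG00000039004.6, chromosome 13, 38345107 to 38500302, GRCm38, plus strand), of the same subgroup, varied little, at 1.80, 1.69 and 1.93 FPKM in mutants and 1.79, 1.91 and 1.47 FPKM in controls. Its log2 fold change was 0.07 (95% interval -0.38 to 0.52, limma adjusted p = 0.901). The Bmp6 locus overlaps Txndc5 on the other strand, which held 52836 reads against 996 for Bmp6, so the Bmp6 level is uncertain if strand was not used.

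Bmper (ENSMUSG00000031963.8, chromosome 9, 23223076 to 23485200, GRCm38, plus strand), a secreted protein that binds BMPs and can oppose or aid their signalling, varied within both groups. It was at 9.86, 26.4 and 28.7 FPKM in mutants 1 to 3, against 20.0, 10.1 and 25.9 FPKM in controls 1 to 3. Mutant 1 and control 2 were low and the other 4 libraries were at 20.0 or above. The log2 fold change was 0.17 with a 95% interval of -0.86 to 1.20 (limma adjusted p = 0.901). Without control 2 it was -0.22, and without mutant 1 and control 2 together the groups of the remaining 4 libraries did not overlap, as for 37.4% of all genes tested, with 26.4 and 28.7 FPKM in mutants and 20.0 and 25.9 FPKM in controls.

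The low Bmper libraries were those with the highest ureteric scores, a score being the mean over a marker list of log2(normalized count + 1) less the control mean. For 8 ureteric markers it was 0.76 in mutant 1 and 0.59 in control 2, against 0.13 and 0.07 in mutants 2 and 3 and -0.14 and -0.44 in controls 1 and 3. For 6 early nephron markers it was 0.72 and 0.60, against -0.36 to 0.08 in the other libraries. For 9 stromal markers it was lowest in control 2 (-0.71), next lowest in control 1 (0.26) and 0.38 in mutant 1. No tested ureteric or stromal marker was at 0 in any library. Their part in the Bmper levels was not tested.

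**Figure D3:**
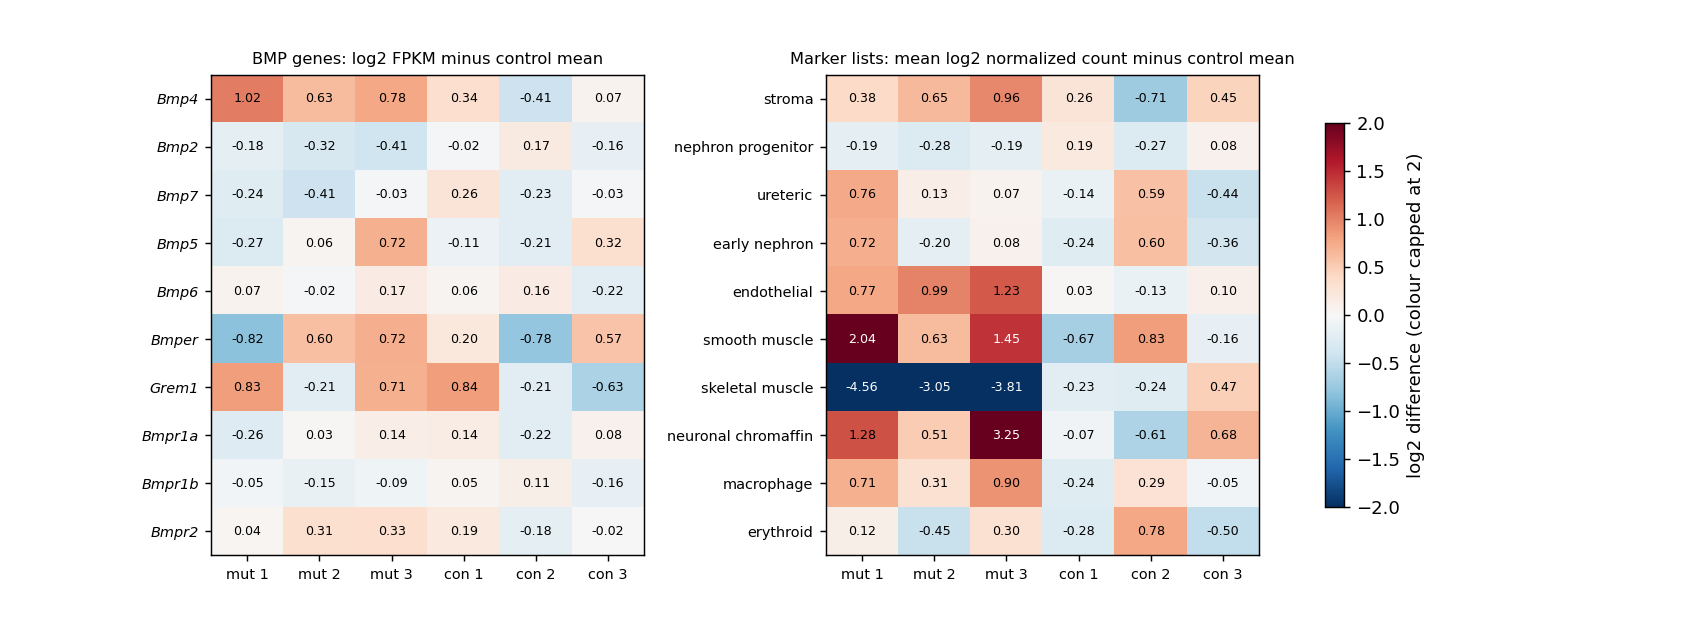
Differences from the control mean on a log2 scale in each library (columns, mutants left), for log2 FPKM of the 10 BMP genes (left panel) and for marker list scores (right panel); colours are capped at 2 and each cell prints its value. Bmper is low in mutant 1 and control 2, the libraries where the ureteric score is 0.76 and 0.59.

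Grem1 (ENSMUSG00000074934.3, chromosome 2, 113746164 to 113758646, GRCm38, minus strand), the gremlin gene, was barely detected. It had 27, 8 and 54 reads in mutants 1 to 3, against 27, 15 and 11 reads in controls 1 to 3, or 0.144 to 0.297 FPKM in mutants and 0.108 to 0.298 FPKM in controls. The groups covered nearly the same range. The log2 fold change was 0.42 with a 95% interval of -0.68 to 1.52 (limma adjusted p = 0.75), and no difference was detectable at these counts.

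Bmpr1a (ENSMUSG00000021796.15, chromosome 14, 34410734 to 34503341, GRCm38, minus strand), the broadly used type I receptor gene, was at 23.7, 29.0 and 31.3 FPKM in mutants 1 to 3, against 31.4, 24.3 and 29.97 FPKM in controls 1 to 3. The groups covered the same range, and mutant 1 and control 2 were again the low libraries. The log2 fold change was -0.03 (95% interval -0.38 to 0.32, limma adjusted p = 0.951). Bmpr1b (ENSMUSG00000052430.15, chromosome 3, 141837136 to 142169425, GRCm38, minus strand), the second type I receptor gene of this group, had the steadiest level of all members, at 2.46, 2.29 and 2.39 FPKM in mutants and 2.63, 2.75 and 2.27 FPKM in controls. Its log2 fold change was -0.10 (95% interval -0.45 to 0.26, limma adjusted p = 0.822). Within a library Bmpr1a was 9.63 to 13.1 times as abundant per length as Bmpr1b in mutants and 8.84 to 13.2 times in controls.

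Bmpr2 (ENSMUSG00000067336.6, chromosome 1, 59763400 to 59879014, GRCm38, plus strand), the type II receptor gene, was at 6.93, 8.36 and 8.48 FPKM in mutants 1 to 3, against 7.70, 5.95 and 6.66 FPKM in controls 1 to 3. Mutants 2 and 3 lay above all controls and mutant 1 between them. The log2 fold change was 0.23 (95% interval -0.09 to 0.55, limma adjusted p = 0.599). The ratio of Bmpr1a to Bmpr2 within a library did not overlap, at 3.42, 3.47 and 3.69 in mutants and 4.07, 4.09 and 4.50 in controls. This ratio is given as a description, since it was seen among several formed from the members.

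**Figure D4:**
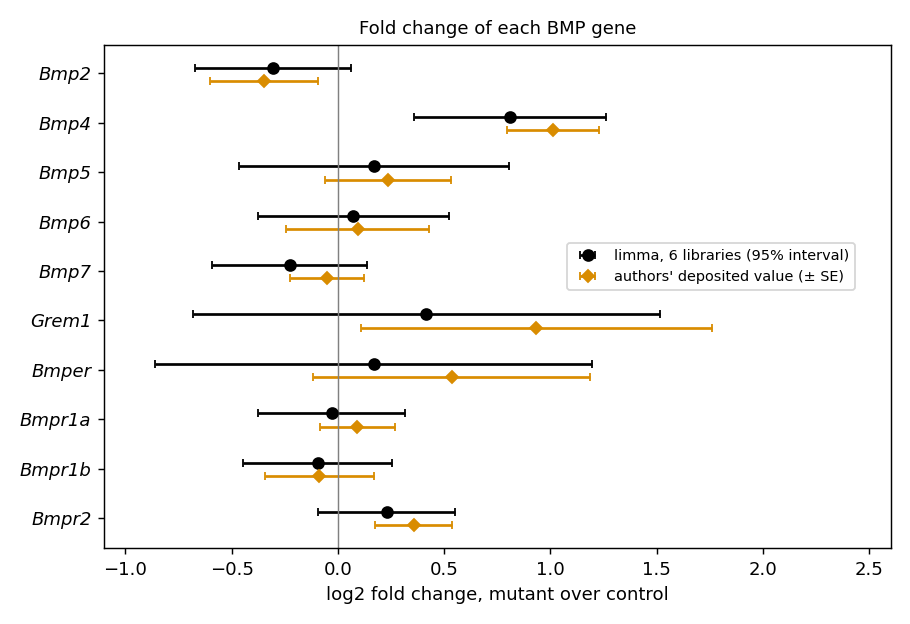
Log2 fold change of each BMP gene, mutant over control, from limma on 6 libraries (black circles with 95% intervals) and in the authors' deposited table (orange diamonds with SE). The interval of Bmp4 (0.36 to 1.26) lies above 0, and those of the other 9 genes span it.

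Ordered by mean FPKM over the 6 libraries, the members ran Bmpr1a (28.3), Bmp7 (26.9), Bmp4 (25.6), Bmper (20.2), Bmpr2 (7.35), Bmp2 (3.85), Bmpr1b (2.47), Bmp5 (2.40), Bmp6 (1.76) and Grem1 (0.211). The ranges of neighbours overlapped among the first 4, where Bmp7 exceeded Bmp4 in 3 of 6 libraries, the controls. Bmper and Bmpr2, Bmpr2 and Bmp2, Bmp2 and Bmpr1b, and Bmp6 and Grem1 kept their order in all 6 libraries with no overlap. Bmpr1b overlapped with Bmp5, and Bmp5 with Bmp6. The coefficient of variation over all 6 libraries was 7.70% for Bmpr1b and 9.51% for Bmp6, against 33.3% for Bmp4, 41.5% for Bmper and 41.5% for Grem1, and its median over all genes tested was 18.55%.

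The profile of Bmp4 across the 6 libraries was most like that of Ajap1, a gene of an adherens junction protein, with a root mean square difference of 0.059 on the log2 scale among 10675 genes compared. Ajap1 was at 11.8, 9.61 and 9.54 FPKM in mutants 1 to 3, against 6.99, 4.41 and 5.81 FPKM in controls 1 to 3. Next came Ggt5, a gamma-glutamyltransferase gene (0.099), and Gpx7, a glutathione peroxidase gene (0.104). The nearest other member was Bmpr2, at 0.372, which is not a close likeness. The Bmp4 profile itself had a root mean square of 0.473 around its own mean, the difference a flat profile would give. For Bmpr1a, the member with the highest mean level, the nearest genes were Tmx4 (0.025), Pigm (0.031) and Zfp583 (0.034). For Bmper, added to this search after its values were seen, they were the mesenchymal homeobox gene Prrx1 (0.127), the potassium channel gene Kcnd2 (0.143) and Pcdhga10 (0.175).

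Among the other genes of the pathway, 1 passed limma over all genes. Acvrl1, a type I receptor gene of endothelial cells, rose in mutants. It was at 6.40, 7.33 and 7.27 FPKM in mutants 1 to 3, against 3.16, 3.66 and 3.38 FPKM in controls 1 to 3, without overlap. Its log2 fold change was 1.04, with an SE of 0.14 and a limma adjusted p of 0.0314. The call did not hold in 5 of the 6 fits that left out 1 library, with the exception of the fit without control 2. Of 12 tested receptor and co-receptor genes outside the members, 1 was called higher and none lower, and the median log2 fold change was 0.02. Eng and Hfe2 were chosen after their values were seen. The endothelial co-receptor gene Eng was at 16.7 to 25.2 FPKM in mutants and 10.8 to 13.9 FPKM in controls (limma adjusted p = 0.165). Hfe2, the hemojuvelin gene, a co-receptor of muscle and liver, was at 0.0309 to 0.135 FPKM in mutants and 0.542 to 0.570 FPKM in controls (limma adjusted p = 0.0936). It had few reads, with 6, 2 and 3 in mutants 1 to 3 and 24, 29 and 27 in controls 1 to 3. The authors' deposited table called 3 of the 12, against 4.61% of the genes with an adjusted p there. These were Acvrl1 and Eng, higher, and Hfe2, lower, with adjusted p of 0.00177, 0.000612 and 0.0462 in the authors' deposited table. Endothelial markers summed to 205 to 260 FPKM in mutants and 107 to 120 FPKM in controls, with 4 of 8 called higher in limma over all genes. Skeletal muscle markers summed to 1.03 to 2.51 FPKM in mutants and 18.3 to 30.6 FPKM in controls, with 4 of 6 called lower. Of all 16933 genes tested, limma called 37 higher and 15 lower (0.307% together). No tested marker of these lists was at 0 in any library, and the part of these cells in the receptor values was not tested.

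No ligand gene outside the members passed limma over all genes among 6 tested, with a median log2 fold change of 0.26. Those with the smallest p were Gdf10 (1.15 to 2.06 FPKM in mutants and 0.490 to 1.41 FPKM in controls), Gdf6, Amh and Gdf11, with limma adjusted p of 0.611 to 0.817. The authors' deposited table called 1 of the 6, against 4.61% of the genes with an adjusted p there. It was Gdf10, higher in mutants (log2 fold change 1.08, adjusted p = 0.0377 in the authors' deposited table). No antagonist or modulator gene passed limma over all genes among 18 tested. Of the 18, 14 had positive fold changes (median 0.24), against 8308 of all 16933 genes tested. At an unadjusted limma p under 0.05 there were 4 of the 18, against 9.63% of all genes tested. Crim1, a membrane protein that binds BMPs, was at 5.24, 4.91 and 6.07 FPKM in mutants and 4.65, 3.51 and 4.34 FPKM in controls. Kcp, which in mice enhances BMP signalling, was at 11.0 to 11.7 FPKM in mutants and 5.46 to 11.1 FPKM in controls. Chrdl1, a chordin-like antagonist, was at 0.612 to 0.766 FPKM in mutants and 0.847 to 1.63 FPKM in controls. Sostdc1, an antagonist of the ureteric epithelium, was at 19.9, 4.87 and 8.91 FPKM in mutants and 2.03, 9.38 and 1.58 FPKM in controls, highest in mutant 1 and control 2 of their groups. These 4 had limma adjusted p of 0.495 to 0.518. The authors' deposited table called 1 of the 18, against 4.61% of the genes with an adjusted p there. It was Kcp, higher in mutants (log2 fold change 0.81, adjusted p = 0.0071 in the authors' deposited table). Among the controls Kcp was highest in control 1, at 11.1 FPKM, within the range of the mutants.

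None of 11 Smad transducers and regulators passed (median log2 fold change -0.04, range -0.28 to 0.21). The transducer gene Smad5 was at 22.6 to 28.5 FPKM in mutants and 29.7 to 32.1 FPKM in controls. Smad1 was at 13.9 to 14.9 FPKM in mutants and 12.7 to 13.7 FPKM in controls. These 2 of the 11 did not overlap, against 16.7% of all genes tested. Smurf2 and Smad4 overlapped. Of 13 tested genes known to respond to BMP, none had an adjusted limma p under 0.05, and the median log2 fold change was 0.20. The authors' deposited table called none of the 13. The log2 fold change was positive for 10 and negative for 3, against 8308 and 8625 of all 16933 genes tested. It was 0.08 for Id3, 0.07 for Smad6 and 0.10 for Smad7. The negative ones were Sp7 (-0.03), Hey1 (-0.24) and Msx2 (-0.69). Whether BMP signalling differed between the genotypes was not tested. At an unadjusted limma p under 0.05, 4 of the 13 were higher, against 890 of all 16933 genes tested. Id2, an inhibitor of bHLH factors, was at 146, 148 and 126 FPKM in mutants and 108, 95.5 and 103 FPKM in controls (limma adjusted p = 0.266), and Id1, Id4 and Atoh8 were the other 3.

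The authors' deposited table gave Bmp4 a larger change than the fit over all 6 libraries, and its fold changes did not weight the controls equally. There the log2 fold change of Bmp4 was 1.01 (SE 0.22, adjusted p = 0.000362 in the authors' deposited table), while the log2 ratio of the means of 3 mutants and 3 controls was 0.79. Over the 5682 genes whose normalized counts averaged 1000 or more, a linear fit of the authors' log2 fold changes on the log2 normalized counts gave weights of 0.28, 0.28 and 0.40 for mutants 1 to 3 and 0.02, -0.58 and -0.39 for controls 1 to 3. The fit left a residual SD of 0.0289. Control 1, the control with the most Bmp4, thus had almost no weight in the deposited fold changes. Leaving control 1 out of the ratio of means gave 0.97 for Bmp4. For Bmp7 the ratio was -0.23 with all controls and -0.09 without control 1, against -0.05 in the authors' deposited table, and for Bmpr2 it was 0.23 and 0.33, against 0.36. Over the 5682 genes, the authors' log2 fold change less the ratio had an SD of 0.163 with all controls. Without control 1 that SD was 0.0841, still larger than the 0.0289 of the weighted fit. Leaving out control 1 brought the ratio closer to the authors' deposited table for 9 of the 10 members. Bmper stayed well below it, at 0.21 and 0.26 against 0.54, and Bmp5 moved away, at 0.21 and 0.15 against 0.24. Outside the members, the ratio for Kcp was 0.48 with all controls and 0.76 without control 1, against 0.81. For Gdf10 it was 0.55 and 0.85 against 1.08, and for Eng 0.78 and 0.87 against 0.92. Acvrl1 changed little, at 1.04 and 0.99 against 0.99, as did Hfe2, at -2.79 and -2.80 against -3.13. Whether the authors' calls depended on the weight of control 1 was not tested. In limma without control 1 the log2 fold change of Bmp4 was 0.98 (limma adjusted p = 0.13).

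**Figure D5:**
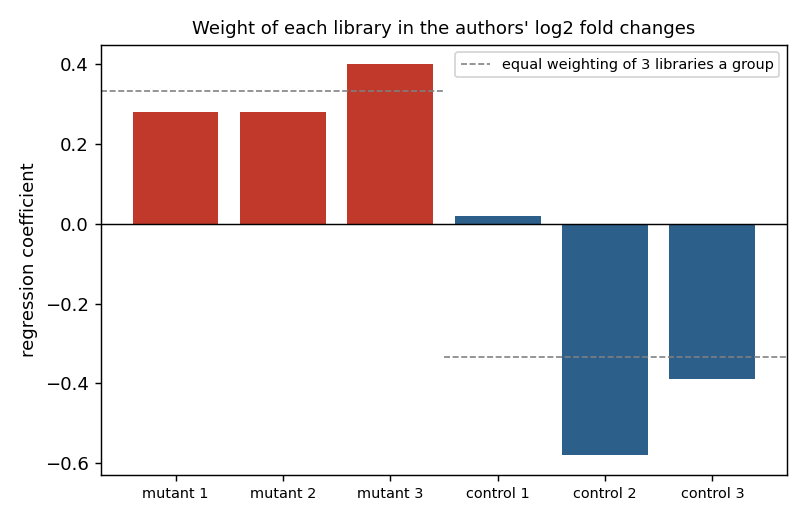
Weight of each library in the authors' deposited log2 fold changes, as the coefficient of a linear fit over 5682 genes (mutants left, controls right; dashed lines mark equal weighting of 3 libraries a group). Control 1 has a weight of 0.02, against -0.58 and -0.39 for controls 2 and 3.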

How the data were processed

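The study measured mRNA in 6 whole-kidney libraries, 3 mutant and 3 control. The submitters' processing notes name STAR 2.6.0c, HTSeq 0.6.1p2, Trim Galore and DESeq2 for the authors, with mm10 as build and no role or order. The deposited library columns were taken as FPKM by the authors from their values, since no header names the unit. Per the file headers, the deposited table also holds the authors' mean normalized count (a signal per gene), log2 fold change, Wald score and p-value. The sources used here do not say which libraries entered that comparison.

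Multiplying FPKM by the mean normalized count over the row mean gave normalized counts, and 100% of 134364 values came out as whole read numbers within 1e-06 reads, given 1 step per library. Genes with at least 10 normalized counts in 3 or more libraries (16933) were tested with limma 3.58.1 (R 4.3.3, intensity trend, no covariate) on log2(value + 1), which understates changes of low genes. P-values were Benjamini-Hochberg adjusted over all genes tested. The test was checked on simulated data. The recovered reads were tested with limma's voom as an alternative, and no negative binomial model was fitted. The design text gives 3 mutant mice. It does not count the control embryos, so p-values measure the spread between libraries.

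The 10 members, lists and naming rules were chosen with earlier results of these data known. All members were named. Other pathway genes were named if called, otherwise the 4 with the smallest p of a list. Of 72 listed pathway genes outside the members, 65 were matched by symbol or RefSeq synonym. Positions are from GENCODE M21 (GRCm38, the mm10 assembly). The planned protein comparison was not made. Alternatives were other pseudocounts, filters and scalings, library weights, a replicate block, each library left out, and, chosen after seeing the data, voom on recovered reads and 2 libraries left out together.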

Additional observations from a re-analysis of the deposited data

How the results depend on the processing

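Bmp4 was higher in mutants in all 17 alternative fits, with log2 fold changes of 0.50 to 0.98, and Bmp2, Bmp7 and Bmpr1b (lower) and Bmpr2 and Grem1 (higher) kept their signs wherever they were in the fit. With library weights, whose estimation stopped before convergence, 380 genes, 1 member (Bmp4) and 3 other pathway genes (Acvrl1, Eng and Hfe2) were called and 2 members (Bmp4 and Bmpr2) had an unadjusted p under 0.05, against 52, 0, 1 and 1 in the reported fit. The fit on deposited FPKM called 33 genes. Without mutant 1 and control 2 together there were 185 calls over all genes, 0 members, 2 other pathway genes (Acvrl1 and Sostdc1) and 4 members without overlap (Bmp2, Bmp4, Bmper and Bmpr2), where 37.4% of all genes did not overlap. With upper quartile scaling 1 member (Bmp4) did not overlap. Leaving out 1 library at a time gave 9 to 158 calls over all genes, 0 to 1 other pathway genes and 2 to 4 members without overlap, where 23.7% to 37.6% of all genes did not overlap. The highest counts came without control 2 (158 genes) and without mutant 1 (4 members), and the lowest without mutant 2 (9 genes).

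Signs reversed only for Bmp5, Bmp6, Bmper and Bmpr1a, whose log2 fold changes in the reported fit were 0.17, 0.07, 0.17 and -0.03. Leaving out 1 library moved Bmp5 over -0.11 (without mutant 3) to 0.39, Bmp6 over -0.0352 (without control 3) to 0.151, Bmper over -0.22 (without control 2) to 0.66 and Bmpr1a over -0.14 to 0.0855 (without mutant 1). Bmper was also negative without mutant 2 (-0.05) and mutant 3 (-0.11), and Bmpr1a positive without control 1 (0.04) and control 3 (0.01). With quantile normalization Bmp6 was at -0.0164 and Bmpr1a at 0.0464, and with upper quartile scaling Bmpr1a was at 0.0166. The cause was not tested.

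The sample numbers of the labels were not taken as pairs, since deviations from the group means correlated at 0.0008, -0.0981 and 0.309 for numbers 1 to 3. With the number as a replicate block 17 genes, 0 members and 0 other pathway genes were called. Depth limits Grem1, with 142 reads over all libraries, and the smallest library, mutant 2.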
